A study of Mus musculus with 6 samples.

Results

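The genes of glycolysis, lactate and pyruvate were examined in single-cell RNA sequencing of mouse retina, cell type by cell type. The set held 38 genes of the 52636 in the count table, listed by name for their place in the pathway: 18 enzymes from hexokinase to lactate dehydrogenase, 7 glucose and monocarboxylate carriers with the carrier chaperone Bsg, 6 genes of mitochondrial pyruvate import and the pyruvate dehydrogenase complex, 4 pyruvate dehydrogenase kinases and 3 phosphofructo-2-kinases. All 38 were found in the table. The retinas came from 12-month-old male C57BL/6J mice that were either Dram2 wt/wt (3 samples) or Dram2 ko/ko (3 samples), the latter lacking the lysosomal membrane protein DRAM2. The mice had no other treatment in the labels. Replicates 1 and 2 of each genotype formed batch 2 and replicate 3 of each formed batch 1. The sample labels named the tissue as retina, whereas the design text of the series named choroid, and the protocol text counted fewer samples than the labels listed. The sample labels were followed.

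Glycolysis splits glucose to pyruvate in the cytosol, and lactate dehydrogenase then interconverts pyruvate and lactate. Photoreceptors turn most of their glucose into lactate even with oxygen present (aerobic glycolysis). Glucose reaches them from the choroid through the retinal pigment epithelium (RPE), and lactate leaves through monocarboxylate transporters, to be taken up by neighbouring cells. Many steps have several isoforms encoded by different genes, and which isoform a cell uses bears on the direction and regulation of the step. LDHA is the form usually linked to lactate formation and LDHB the form usually linked to lactate use, hexokinase 2 binds mitochondria and is typical of highly glycolytic cells, and MCT3 (Slc16a8) is the basolateral lactate carrier of the RPE.

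Promoters are shown for 4 genes on which the results turn, the hexokinase and lactate dehydrogenase forms that divide the types and the lactate carrier of RPE. They are RefSeq sequences on GRCm38.p6, 250 bases before to 50 bases after the annotated start, written 5′ to 3′ on the gene's strand. Capitals mark ACGTG, the core that hypoxia-inducible factors bind, and the E-box CACGTG, which contains ACGTG, both read on either strand (ACGTG reads CACGT on the other). Hk2 lies at chr6:82774405-82774704 (minus strand), Ldha at chr7:46845554-46845853 (plus strand, the first of its starts), Ldhb at chr6:142507908-142508207 (minus strand) and Slc16a8 at chr15:79254699-79254998 (minus strand).
Hk2: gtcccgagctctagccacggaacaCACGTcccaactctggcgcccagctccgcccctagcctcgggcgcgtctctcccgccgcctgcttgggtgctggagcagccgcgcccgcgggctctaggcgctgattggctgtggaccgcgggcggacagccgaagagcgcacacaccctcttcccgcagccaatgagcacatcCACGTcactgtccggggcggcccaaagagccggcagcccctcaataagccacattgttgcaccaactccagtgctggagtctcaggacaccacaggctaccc
Ldha: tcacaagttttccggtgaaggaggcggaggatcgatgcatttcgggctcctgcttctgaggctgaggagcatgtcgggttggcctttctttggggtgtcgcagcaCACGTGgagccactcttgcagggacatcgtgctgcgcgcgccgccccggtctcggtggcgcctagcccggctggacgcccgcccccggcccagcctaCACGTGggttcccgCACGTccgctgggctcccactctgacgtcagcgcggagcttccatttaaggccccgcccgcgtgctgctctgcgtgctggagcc
Ldhb: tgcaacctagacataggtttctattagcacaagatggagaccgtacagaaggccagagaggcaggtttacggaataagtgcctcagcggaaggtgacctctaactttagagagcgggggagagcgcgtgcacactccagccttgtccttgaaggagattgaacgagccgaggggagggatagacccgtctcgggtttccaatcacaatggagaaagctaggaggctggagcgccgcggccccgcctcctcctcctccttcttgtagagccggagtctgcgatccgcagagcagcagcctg
Slc16a8: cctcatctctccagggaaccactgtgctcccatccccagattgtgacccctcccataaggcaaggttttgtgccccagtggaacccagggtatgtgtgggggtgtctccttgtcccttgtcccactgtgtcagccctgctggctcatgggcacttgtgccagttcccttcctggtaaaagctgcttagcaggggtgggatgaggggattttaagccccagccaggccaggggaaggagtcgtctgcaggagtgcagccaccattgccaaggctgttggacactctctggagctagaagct
The Hk2 promoter held 2 matches to ACGTG and the Ldha promoter 5, of which 4 lay in 2 copies of CACGTG, each read on both strands. The window at the other Ldha start held 0 matches to ACGTG and 1 to TAATCC. No match lay in the windows of Ldhb and Slc16a8. Of 52 promoters found for 35 of the 38 genes, 22 (42.3%) held ACGTG, against 19.6% of all 32851 promoters of the same length. CACGTG lay in 6 of the 52 (11.5%, against 7.15% of all). TAATCC, the core read by photoreceptor homeodomain factors, lay in 5 (9.62%, against 7.06%). These are matches of letters and no measurement of binding.

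Counts were unique molecular identifiers (UMIs) from 10x 3′ libraries, which count each molecule once whatever the length of its gene, so levels are given as CPM (a gene's UMIs scaled to the total UMIs of the sum) and shares of isoforms as shares of molecules. UMIs were summed over the cells of each deposited type in each retina. The retinas held 3463728 to 6563762 UMIs each. Of 46375 cells, 42359 were typed as photoreceptors, 2083 as interneurons, 942 as glia, 246 as mesenchymal and 116 as RPE, and 629 had no type. The RPE sums were thin (10 to 25 cells and 17073 to 35968 UMIs a retina), and RPE cells were those left on the retina when it was dissected. Dram2 itself was counted in both genotypes (109, 140 and 315 UMIs in wt/wt, 93, 147 and 347 in ko/ko), which checks nothing, since 3′ reads lie outside the deleted part.

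The types carried most of their marker genes, with limits. A rod list summed to 68740 to 109700 CPM in photoreceptors, but also to 6210 to 15880 CPM in the other 4 types. At that ratio, photoreceptor RNA would make up 7.81% to 18.4% of the UMIs of each sum of another type. The share of a gene's UMIs that would follow from it is given below for several genes. With the rod share subtracted from the counts (values under 0 set to 0), 28 members were tested, of which photoreceptors were higher than glia in 15 and lower in 9, higher than interneurons in 8 and lower in 10, and higher than RPE in 20 and lower in 6. Of all 5787 genes tested so, photoreceptors were higher than glia in 2289 and lower in 1828. The counts were 1959 and 1808 against interneurons, and 2275 and 783 against RPE. RPE markers summed to 91470 to 124600 CPM in RPE and to at most 241 CPM elsewhere, and Müller glia markers to 39310 to 51280 CPM in glia, although RPE also held 11980 to 15930 CPM. In interneurons bipolar markers summed to 3479 to 7073 CPM, against at most 642 CPM in any sum of another type. Amacrine markers were higher in glia (915 to 1247 CPM) than in most interneuron sums, and in interneurons they went with batch, at 73.2 to 343 CPM in batch 2 and 1246 and 1420 in batch 1. The mesenchymal label went against its markers: fibroblast genes summed to 0 to 17.5 CPM, endothelial genes to 3571 to 7461, microglial genes to 2979 to 15240 and pericyte genes to 1409 to 4621. Of its 246 cells, 114 were led by endothelial, 83 by microglial and 31 by pericyte markers, none by fibroblast markers, and 18 by no list. It is called the mesenchymal class after its label.

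Summed over the 18 enzymes from hexokinase to lactate dehydrogenase, interneurons (13240 ± 1604 CPM, SD, n = 6) and photoreceptors (11150 ± 1366) stood above glia (7112 ± 1311), RPE (5042 ± 1135) and the mesenchymal class (3809 ± 808). Gene by gene, interneurons held the highest mean of 16 of the 38 genes, the mesenchymal class of 7, photoreceptors of 6, RPE of 6 and glia of 3. In 7, 0, 4, 1 and 3 of these, respectively, the lowest retina of the leading type stood above the highest retina of the next. The pathway was thus not simply highest in one type, and the types differed in which isoforms they held, as the map of mean levels shows.

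**Figure D1:**
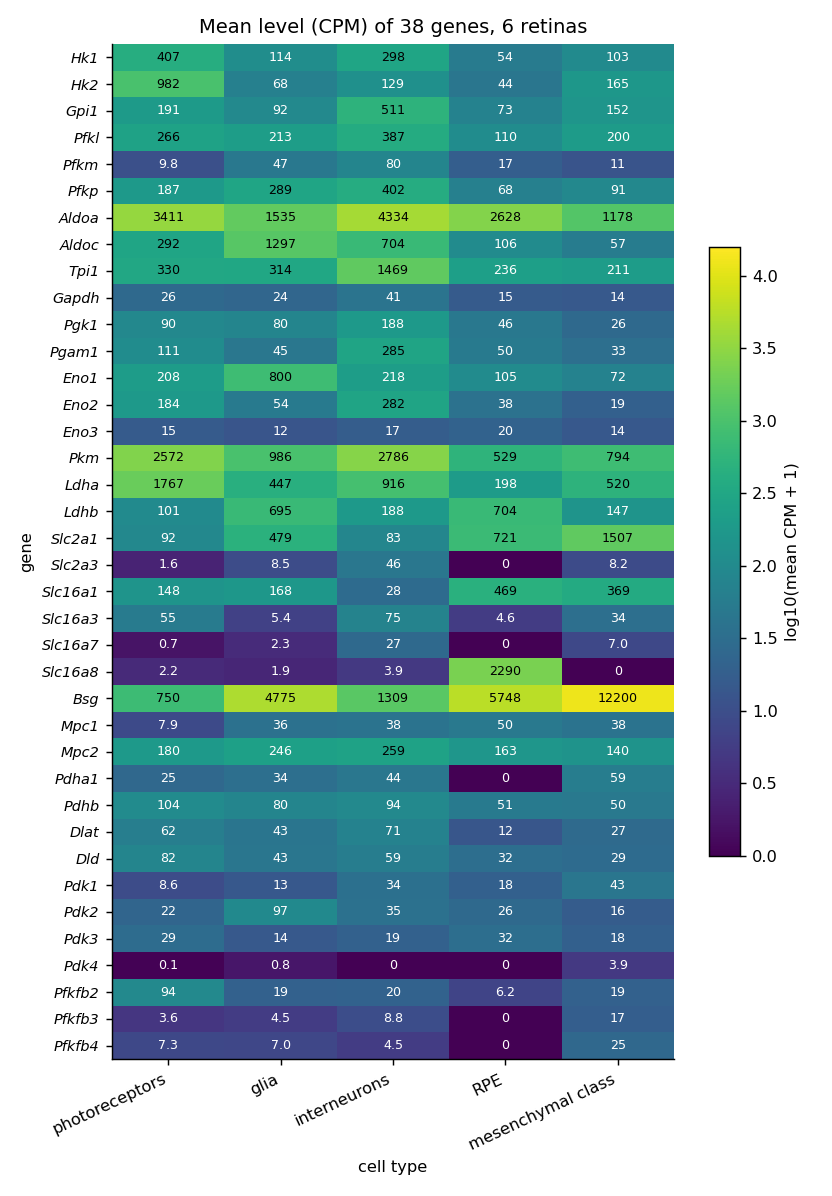
Mean CPM over 6 retinas of each of the 38 genes (vertical axis) in the 5 deposited cell types (horizontal axis), coloured on a log10(mean CPM + 1) scale. Hk2 and Pfkfb2 stand out in photoreceptors, Aldoc and Eno1 in glia, Tpi1 in interneurons, Slc16a8 in RPE, and Slc2a1 and Bsg in the mesenchymal class.

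Differences between types were tested over all genes with edgeR's quasi-likelihood test on the 30 sums, with the retina as a block. Of 6290 genes tested, 94.3% differed among the 5 types (adjusted p under 0.05), and so did each of the 29 members that passed the filter on low counts. The 9 that did not pass were Gapdh, Eno3, Slc2a3, Slc16a7, Pdk1, Pdk3, Pdk4, Pfkfb3 and Pfkfb4. With that background a call is no distinction of these genes, a member can pass the filter through the type where it is high, and the types were themselves made by clustering these counts, so the sizes below matter more than the calls. Relative to glia, photoreceptors were higher in 15 of the 29 (37.0% of all genes tested were higher) and lower in 10 (32.0%), with a median log2 difference of 0.40 against 0.13 over all genes. Relative to interneurons they were higher in 8 (32.9%) and lower in 15 (33.1%), with a median of -0.26 against 0.01. Other settings moved these counts: 10 were higher and 11 lower with RLE factors (2352 and 1827 of 6290 genes), and 6 and 18 with library size alone (1278 and 3082). DESeq2 gave 9 and 10 (2143 and 1686). With the batch 2 retinas alone, 26 members were tested, 8 higher and 7 lower (1641 and 1493 of 5051 genes). Fewer members were called in the other contrasts there too, where fewer genes were tested. Photoreceptors were higher than glia in 14 and lower in 8 (1671 and 1554 of 5051 genes). Against RPE the counts were 15 and 5 (1586 and 764), and against the mesenchymal class 17 and 4 (1633 and 1640). Glia were higher than RPE in 6 and lower in 4 (1150 and 451). Interneurons held fewer amacrine markers in that batch, and the part of this was not tested. Relative to RPE, photoreceptors were higher in 20 (37.7%) and lower in 6 (13.6%), with a median of 1.44, or 1.37 with Pdha1 at its bound, against 1.03. Relative to the mesenchymal class they were higher in 20 (33.2%) and lower in 5 (30.9%), with a median of 1.26, or 1.22 at the bound of Slc16a8, against 0.12. Glia were higher than RPE in 12 (30.2%) and lower in 3 (8.39%), with a median of 0.89 (0.86 at the bound) against 0.85. Log2 differences are relative to TMM scaling. Scaling by library size alone shifted the members' median by -0.13 to -0.34 and reversed no call, although 13 calls of single members were lost. Calls gained were Slc16a3 (log2 -0.47, edgeR adjusted p = 0.0017), Aldoa (-0.40, 0.0053) and Slc16a8 (-1.12, 0.0163) in photoreceptors minus interneurons. Ldhb in photoreceptors minus the mesenchymal class (-0.64, 0.0129) and Slc2a1 in glia minus RPE (-0.50, 0.0428) were gained too. Members not called that changed sign with that scaling were Eno1, Pkm and Dlat (photoreceptors against interneurons), Pdk2 (photoreceptors against RPE) and Pgam1 (glia against RPE).

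**Figure D2:**
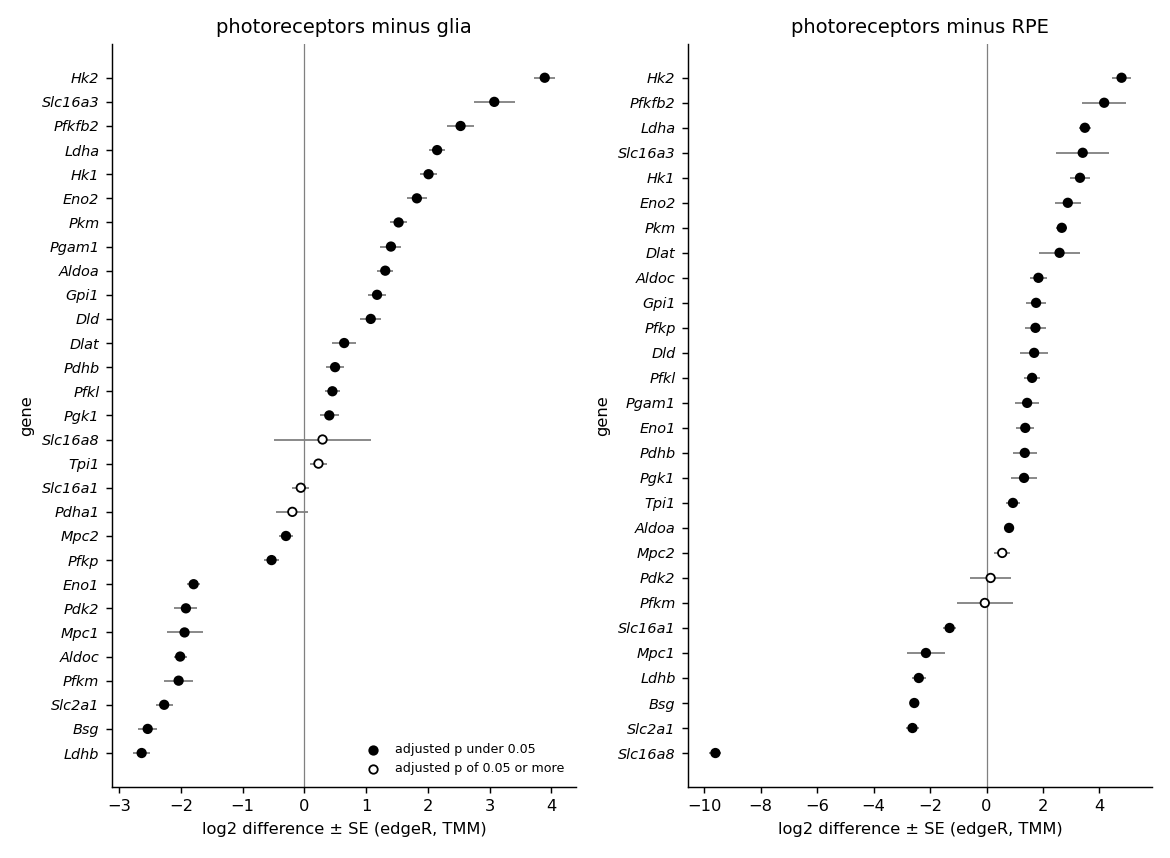
Fitted log2 difference ± SE of photoreceptors minus glia and of photoreceptors minus RPE (horizontal axis) for the members tested (vertical axis), 6 retinas each. Hk2 lies farthest to the photoreceptor side in both, Ldhb, Bsg and Slc2a1 lie on the other side in both, and Slc16a8 lies at -9.60 in the RPE panel, where Pdha1 is left out because RPE held no UMI of it.

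Hexokinase traps glucose in the cell as glucose 6-phosphate, and its forms were divided by type. Hk2 was at 762, 1003 and 1211 CPM (lowest, median and highest of 6 retinas) in photoreceptors, 60.3, 61.9 and 93.9 in glia, 77.0, 139 and 164 in interneurons, and 0, 46.6 and 112 in RPE. Photoreceptors and the other types did not overlap. The log2 difference was 3.89 ± 0.17 (SE) against glia (edgeR adjusted p = 3.07e-33) and 3.27 ± 0.14 against interneurons (5.09e-34), and it was 4.78 ± 0.35 against RPE and 2.73 ± 0.18 against the mesenchymal class. The UMIs that rod RNA would give came to 167% of those counted in glia, 113% in interneurons and 279% in RPE. In the mesenchymal class (51.2, 134 and 395 CPM) it came to 65.6%. Within that class, Hk2 stood at 415 CPM in microglia-led cells and 52.0 CPM in endothelial-led cells, both pooled over retinas. Hk1, the form common in neurons, was spread more evenly, at 365, 392 and 468 CPM in photoreceptors, 220, 312 and 337 in interneurons and 99.3, 108 and 145 in glia, where rod RNA would give 48.7% of its UMIs. Hk2 made up 70.3% ± 5.71 (SD, n = 6) of hexokinase UMIs in photoreceptors, 37.2% ± 4.08 in glia and 29.95% ± 4.84 in interneurons, and its share was higher in photoreceptors in 6 of 6 retinas against each. With the rod share taken away, the Hk1 share of photoreceptors minus that of glia went from -33.1 to -69.8 percentage points (5 retinas kept 10 UMIs of the pair in glia), and minus that of interneurons from -40.3 to -70.1. That change follows from the subtraction, which left a mean Hk2 of 0 CPM in glia and 0.464 in interneurons, and is no further support. An exact two-sided sign-flip permutation test over 6 retinas cannot give less than p = 0.03125, which it gave for the Hk2 shares as counted. Over the 70 share comparisons made the adjusted value was 0.0534, so no share difference passed 0.05 after adjustment, and shares below are given with the number of retinas on one side. Of 58 comparisons with 6 retinas, 41 had every retina on one side.

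The next steps were led by interneurons. Gpi1, the isomerase that makes fructose 6-phosphate, was at 408, 467 and 794 CPM in interneurons and 144, 170 and 324 in photoreceptors. Phosphofructokinase commits sugar to glycolysis through a liver (Pfkl), a muscle (Pfkm) and a platelet form (Pfkp). Pfkl made up 57.5% ± 3.23 of its UMIs in photoreceptors and 38.9% ± 3.70 in glia, while Pfkp made up 40.4% ± 3.15 and 52.7% ± 3.50, and in all 6 retinas photoreceptors had more Pfkl and less Pfkp. Pfkm was the minor form everywhere (9.19% in interneurons, 2.13% in photoreceptors), and at 6.38, 9.55 and 12.4 CPM in photoreceptors against 60.1, 80.1 and 111 in interneurons it had the largest negative difference of that contrast among the 29 members tested (log2 -2.72 ± 0.17).

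Aldolase splits fructose 1,6-bisphosphate, and its brain form Aldoc marked glia. Aldoc was at 1096, 1309 and 1512 CPM in glia, 638, 667 and 912 in interneurons, 255, 299 and 317 in photoreceptors and 75.2, 112 and 133 in RPE, with no overlap between glia and any other type. Its share of aldolase UMIs was 46.3% ± 3.41 in glia, 14.1% ± 2.22 in interneurons, 7.96% ± 0.594 in photoreceptors and 4.16% ± 1.59 in RPE. The rest was Aldoa, the most abundant enzyme mRNA of the set, at 2689, 3436 and 4071 CPM in photoreceptors, 3580, 4413 and 5077 in interneurons, 1819, 2439 and 3749 in RPE and 1046, 1530 and 1946 in glia. Glia were above RPE in Aldoc (log2 3.85 ± 0.25). In Aldoa they were below it (-0.51 ± 0.15, edgeR adjusted p = 0.00427), a call that was lost without a filter on low counts (-0.16, adjusted p = 0.605), with wt/wt or ko/ko retinas alone and without ko/ko 1. Processed copies of Aldoa that are nearly identical at the 3′ end held 10.4% of the UMIs of Aldoa and its copies together.

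**Figure D3:**
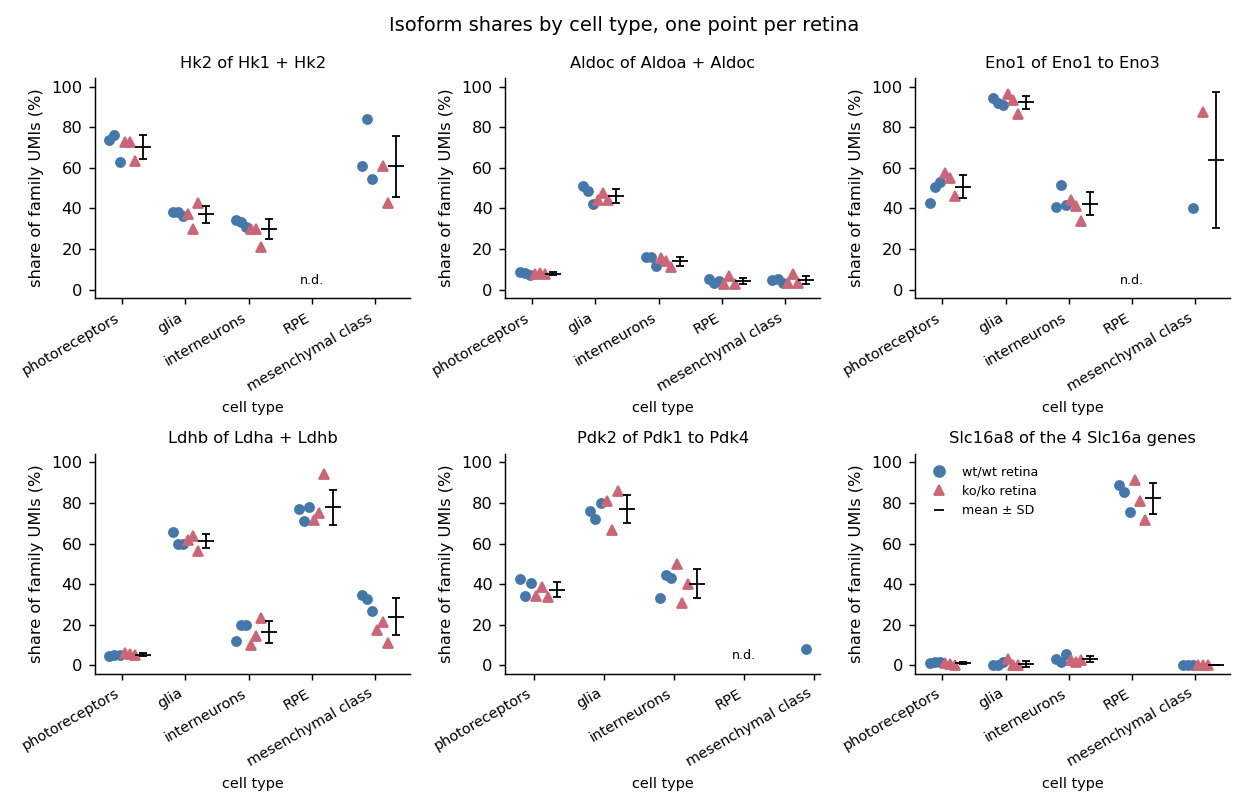
Share of the family's UMIs (percent, vertical axis) of Hk2, Aldoc, Eno1, Ldhb, Pdk2 and Slc16a8, a point for each retina, coloured by genotype, with the mean ± SD, in each cell type (horizontal axis, n.d. where no retina had 10 UMIs of the family). Glia stand apart in Aldoc, glia and RPE in Ldhb and RPE in Slc16a8. In Eno1 and Pdk2 glia lie above photoreceptors and interneurons, and the mesenchymal class has only 2 and 1 retinas (Eno1 40% and 87.5%).

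In the lower part of the pathway, triose phosphate isomerase (Tpi1) was at 1272, 1458 and 1672 CPM in interneurons and 259, 320 and 405 in photoreceptors (log2 difference -1.87 ± 0.11), with no overlap with any other type. Pgk1, which makes the first ATP of the payoff phase, and Pgam1, the mutase after it, followed the same order between these types (Pgk1 145 to 273 against 64.1 to 134 CPM, Pgam1 237 to 411 against 82.3 to 164). Enolase, the next enzyme, split between a general form, Eno1, and a neuronal form, Eno2. Eno1 was at 573, 695 and 1116 CPM in glia and at most 274 in any retina of another type, and Eno2 was at 202, 292 and 362 in interneurons, 151, 180 and 223 in photoreceptors and 26.7, 40.6 and 102 in glia. Glia were above RPE in Eno1 by 3.17 ± 0.27 (log2), and Eno2 was at 0, 17.1 and 44.1 CPM in the mesenchymal class, with photoreceptors above it by 3.44 ± 0.31. Rod RNA would give 109.9% of the Eno2 UMIs of that class and 38.4% of those of glia. Eno1 made up 92.2% ± 3.40 of enolase UMIs in glia, 50.8% ± 5.52 in photoreceptors and 42.3% ± 5.73 in interneurons, the last pair differing in 5 of 6 retinas. Eno3, the muscle form, stayed at or under 23.7 CPM in photoreceptors, glia and interneurons. Pyruvate kinase (Pkm) was close in photoreceptors (1847, 2670 and 3167 CPM) and interneurons (2488, 2660 and 3491), and lower in glia (687, 1030 and 1213) and RPE (337, 533 and 714), where rod RNA would give 35.1% and 62.8% of its UMIs. Its PKM1 and PKM2 splice forms cannot be told apart in a count per gene.

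For Gapdh and Eno1 the counted level was not the whole signal. Gapdh had 788 UMIs of its own against 7921 on near-identical pseudogene copies (101 of 108 had UMIs), and Eno1 had 6720 against 11503, of which 10260 lay on Eno1b. With the copies added (a choice made after the data were seen), the mean level of Gapdh was 303 CPM in photoreceptors, 281 in glia, 490 in interneurons, 106 in RPE and 103 in the mesenchymal class, and that of Eno1 was 2531 CPM in glia, 589 in photoreceptors and 624 in interneurons. Glia had the highest mean of Eno1 on either count, but the difference in its share of enolase UMIs, photoreceptors minus glia, went from -41.4 to -23.6 percentage points with the copies added.

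Lactate dehydrogenase, the last step, was divided between photoreceptors on one side and glia and RPE on the other. Ldha was at 1509, 1760 and 2019 CPM in photoreceptors, 721, 876 and 1150 in interneurons, 352, 451 and 950 in the mesenchymal class, 317, 439 and 579 in glia and 58.6, 196 and 338 in RPE. Photoreceptors did not overlap with any other type, and they were above glia by 2.15 ± 0.13 (log2, edgeR adjusted p = 1.18e-24) and above RPE by 3.48 ± 0.23 (1.32e-22). Ldhb ran the other way, at 399, 710 and 996 CPM in RPE and 562, 695 and 858 in glia against 76.4, 98.1 and 134 in photoreceptors. Neither glia and RPE (0.24 ± 0.21, adjusted p = 0.381) nor photoreceptors and the mesenchymal class (-0.41 ± 0.24, 0.122) were distinguished in Ldhb. As a share, Ldhb was 5.37% ± 0.512 of the pair's UMIs in photoreceptors (4.82% to 6.21%), 16.6% ± 5.33 in interneurons, 24.0% ± 9.21 in the mesenchymal class, 61.2% ± 3.32 in glia (56.5% to 65.8%) and 77.8% ± 8.64 in RPE (71.0% to 94.4%, from 12 to 31 UMIs a retina). Each of the 5 pairs of types compared had all 6 retinas on one side. Rod RNA would give 51.0% of the Ldha UMIs in glia and 112% of those in RPE, but 1.89% and 1.86% of their Ldhb. With the rod share taken away, the difference in the Ldha share grew from 55.8 to 70.6 percentage points between photoreceptors and glia, and from 72.4 to 91.1 between photoreceptors and RPE. Subtracting photoreceptor RNA, in which Ldha leads, must widen these gaps, so the growth is no further support for them.

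Glucose enters through GLUT1 (Slc2a1), the carrier of blood-tissue barriers, and in neurons also through GLUT3 (Slc2a3). Slc2a1 was at 798, 1283 and 2816 CPM in the mesenchymal class, 293, 719 and 984 in RPE, 351, 488 and 569 in glia, 73.5, 90.02 and 116 in photoreceptors and 49.8, 83.7 and 114 in interneurons. The first 3 did not overlap with the last 2, but RPE overlapped with its neighbours on either side, and glia and RPE were not distinguished (log2 -0.35 ± 0.21, adjusted p = 0.173). Photoreceptors were below all 3, with a log2 difference of -2.27 ± 0.14 from glia, -2.62 ± 0.22 from RPE and -3.83 ± 0.14 from the mesenchymal class. In the mesenchymal class Slc2a1 lay in endothelial-led cells (2570 CPM pooled) rather than microglia-led ones (90.2). Slc2a3 was counted mainly in interneurons, at 36.6, 46.1 and 56.9 CPM, where it made up 36.5% ± 9.65 of the pair's UMIs. In photoreceptors and glia its share was at most 2.78% in any retina.

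Lactate and pyruvate cross membranes through the monocarboxylate transporters MCT1 (Slc16a1), MCT2 (Slc16a7), MCT3 (Slc16a8) and MCT4 (Slc16a3), of which MCT1, MCT3 and MCT4 need basigin (Bsg) to reach the surface. Slc16a8 was at 1464, 2357 and 2818 CPM in RPE, 0.642, 2.17 and 3.63 in photoreceptors, 2.16, 3.56 and 7.11 in interneurons, 0, 0 and 6.70 in glia and 0 in every mesenchymal sum. A count of 0 over the mesenchymal sums of all 6 retinas together allows up to 5.60 CPM, and a single sum allows more. The RPE count was 353 UMIs against 3 in glia, a ratio of levels of 1208 (95% counting interval 410 to 5887), and the log2 difference of photoreceptors from RPE was -9.60 ± 0.22. It made up 82.2% ± 7.73 of the carriers' UMIs in RPE, and Slc16a1 17.6% ± 7.58.

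The other carriers were divided among the remaining types. Slc16a1 was at 268, 451 and 723 CPM in RPE, 160, 344 and 596 in the mesenchymal class, 80.3, 173 and 252 in glia, 134, 144 and 182 in photoreceptors and 21.4, 27.0 and 36.6 in interneurons. It was the leading carrier in glia (94.7% ± 1.94), the mesenchymal class (89.2% ± 7.11) and photoreceptors (71.8% ± 4.24), and glia and photoreceptors were not distinguished in its level (-0.06 ± 0.14, adjusted p = 0.725). Photoreceptors were above interneurons in it by 2.79 ± 0.16, although rod RNA would give 79.0% of the interneuron UMIs, and glia were below RPE (-1.25 ± 0.25). Slc16a3, the carrier typical of lactate-exporting cells, led in interneurons, with 55.7% ± 7.17 of UMIs and 60.1, 67.9 and 97.3 CPM. Photoreceptors held 47.3, 51.7 and 69.2 CPM of it and were not distinguished from interneurons (-0.12 ± 0.13, adjusted p = 0.423), whereas glia held 0, 5.35 and 12.7 (photoreceptors minus glia 3.08 ± 0.33), of which rod RNA would give 98.8%. Slc16a7, a high-affinity carrier of neurons, made up 19.8% ± 5.19 in interneurons (16.8, 25.04 and 38.5 CPM) and 0.318% in photoreceptors. Bsg was at 6406, 12440 and 16470 CPM in the mesenchymal class, 4586, 5605 and 7204 in RPE, 3426, 4718 and 6361 in glia, 1184, 1286 and 1475 in interneurons and 558, 730 and 968 in photoreceptors. It was the highest mRNA of the set in glia, RPE and the mesenchymal class. Glia and RPE were not distinguished (-0.02 ± 0.16, adjusted p = 0.941), and both stood above photoreceptors, by 2.54 ± 0.16 and 2.56 ± 0.17, as did the mesenchymal class (photoreceptors minus that class -3.86 ± 0.17).

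**Figure D4:**
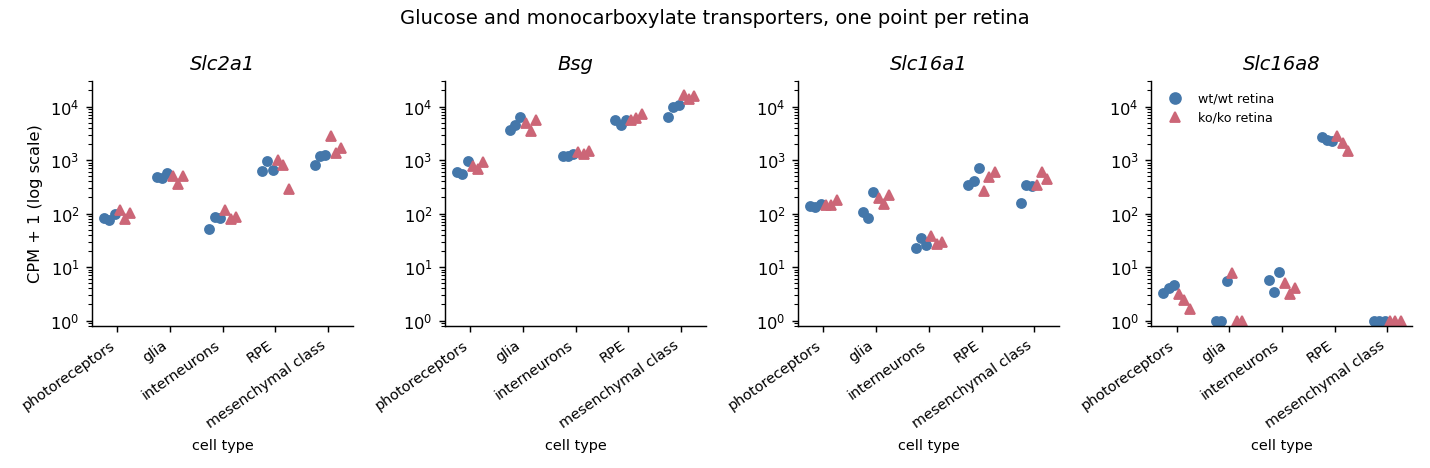
CPM + 1 of Slc2a1, Bsg, Slc16a1 and Slc16a8 on a log axis (vertical) by cell type (horizontal), a point for each of the 6 retinas, coloured by genotype. Slc2a1 and Bsg are highest in the mesenchymal class and low in photoreceptors, Slc16a1 is lowest in interneurons, and Slc16a8 stands at 1464 to 2818 CPM in RPE and under 10 elsewhere.

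Pyruvate enters mitochondria through the carrier pair Mpc1 and Mpc2. Mpc1 was low in photoreceptors (5.13, 8.13 and 11.01 CPM) and higher in interneurons (25.2, 41.8 and 45.3), glia (12.7, 36.3 and 53.6) and the mesenchymal class (12.8, 40.5 and 64), with a log2 difference of -1.996 ± 0.22 from interneurons, -1.94 ± 0.29 from glia and -2.06 ± 0.41 from the mesenchymal class. Mpc2 differed less (133 to 224 CPM in photoreceptors, 201 to 291 in glia). Pyruvate dehydrogenase then makes acetyl-CoA, with Pdha1 and Pdhb as the E1 subunits, Dlat as E2 and Dld as E3. Pdhb, Dlat and Dld were higher in photoreceptors than in glia (log2 0.50 ± 0.15, 0.64 ± 0.19 and 1.08 ± 0.17), although the call of Pdhb was lost with scaling by library size alone (0.29, adjusted p = 0.0796) and that of Dlat with wt/wt retinas alone (0.58) or batch 2 alone (0.54). Pdha1 was not distinguished (-0.20 ± 0.26, adjusted p = 0.510). No UMI of Pdha1 was counted in RPE, which at 19.8 CPM for 3 counts allows no more than that photoreceptors were at least 1.30-fold and glia at least 1.79-fold higher.

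Pyruvate dehydrogenase kinases (Pdk1 to Pdk4) switch that complex off, and their shares differed among the 3 types with enough UMIs. Pdk2 made up 77.0% ± 6.85 of their UMIs in glia (61.1, 92.0 and 140 CPM), against 37.2% ± 3.75 in photoreceptors (19.0, 22.3 and 26.9 CPM) and 40.2% ± 7.24 in interneurons. Pdk3 led in photoreceptors (48.5% ± 3.89, at 26.8, 27.6 and 35.5 CPM) and was a minor form in glia (11.5% ± 5.08). Pdk1, a target of hypoxia-inducible factor, made up 39.0% ± 7.06 in interneurons (20.4, 34.1 and 43.4 CPM), where neither it nor Pdk2 was ahead in every retina, 14.1% ± 3.20 in photoreceptors and 10.97% ± 3.52 in glia. Its highest mean CPM was in the mesenchymal class (25.7, 40.5 and 64), and Pdk4, the form of fasted tissues, was at most 12.8 CPM in any sum.

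The phosphofructo-2-kinases set the level of fructose 2,6-bisphosphate, which activates phosphofructokinase. Pfkfb2 was at 85.8, 93.8 and 100 CPM in photoreceptors, 11.9, 21.5 and 26.7 in interneurons and 6.69, 18.0 and 33.5 in glia, with no overlap between photoreceptors and any other type. It was above glia by 2.53 ± 0.22 and above interneurons by 2.44 ± 0.15, although rod RNA would give 67.1% of its UMIs in glia and 61.5% in interneurons. RPE held 1 UMI of it (fitted log2 difference 4.17 ± 0.77, and a ratio of 14.2 with a counting interval of 2.55 to 561). It made up 89.6% ± 3.26 of the family in photoreceptors, and Pfkfb3 and Pfkfb4 stayed at or under 6.91 and 11.2 CPM there.

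Genes around the pathway were counted from lists of the same kind, to be read against the 37.0% of all genes tested that were higher and the 32.0% that were lower in photoreceptors than in glia. Of 11 glycogen genes 6 were tested, and in photoreceptors 4 were lower and 1 higher than in glia. Pygb, the brain glycogen phosphorylase, was at 141, 167 and 187 CPM in glia and 8.64, 9.09 and 11.1 in photoreceptors, and Gbe1, the branching enzyme, at 99.3, 133 and 193 in glia and 6.48, 10.3 and 13.5 in photoreceptors. Of 9 NADH shuttle genes 5 were tested, with 4 higher and 1 lower in photoreceptors than in glia. Got1, the cytosolic aminotransferase of the malate-aspartate shuttle, was at 226, 275 and 323 CPM in photoreceptors and 22.9, 44.3 and 70.6 in glia, while Gpd2, of the glycerol phosphate shuttle, was at 61.4, 125 and 218 in the mesenchymal class and at most 4.19 in photoreceptors. Of 17 genes of the tricarboxylic acid cycle 14 were tested, with 7 higher and 2 lower in photoreceptors than in glia. The malate dehydrogenase Mdh2 was at 266 to 403 CPM in photoreceptors and 117 to 239 in glia, and Idh3a, a subunit of isocitrate dehydrogenase, at 63.2 to 119 and 20.1 to 58.4. Interneurons had the highest mean of Mdh2 (311 to 472 CPM), Idh3a (84.2 to 153) and Got1 (249 to 414). Of the 14 cycle genes, 1 was higher and 6 were lower in photoreceptors than in interneurons (32.9% and 33.1% of all genes tested). Of 8 pentose phosphate genes 4 were tested, with 0 higher and 2 lower in photoreceptors than in glia. Transketolase (Tkt) was at 23.3 to 46.4 CPM in photoreceptors, 147 to 218 in glia and 126 to 332 in interneurons, where its mean was highest. Transaldolase (Taldo1) was highest in RPE at 561, 728 and 940 CPM. Of 21 further isozymes and regulators 4 were tested, with 2 higher and 2 lower. Hkdc1, a hexokinase-like gene, was at 40.2, 65.2 and 87.8 CPM in glia and at most 1.12 in photoreceptors, and Txnip, an inhibitor of glucose uptake, at 141, 209 and 288 in the mesenchymal class. Of 11 hypoxia-response genes outside the pathway 8 were tested, with 3 higher and 4 lower in photoreceptors than in glia, and the 2 with the smallest p, Epas1 (384, 644 and 827 CPM) and Ndufa4l2 (107, 268 and 604), were highest in the mesenchymal class.

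Loss of Dram2 was then compared within each type, 3 retinas against 3. No gene differed between genotypes at an adjusted p under 0.05 by edgeR in photoreceptors (0.0% of 13053 genes, 34 members tested), glia (0.0% of 4130, 20 members), interneurons (0.0% of 7698, 32 members), RPE (0.0% of 308, 7 members) or the mesenchymal class (0.0% of 1717, 12 members). At an unadjusted p under 0.05 there were 109, 51, 86, 11 and 150 genes by edgeR, 103, 69, 134, 9 and 134 by limma-voom and 50, 15, 18, 5 and 87 by DESeq2, and DESeq2 called 1 gene in RPE, which was no member. With batch as a covariate, edgeR called 3 genes in RPE and 21 in the mesenchymal class, 0 of them members. The members' median log2 difference, ko/ko minus wt/wt, was 0.16 in photoreceptors, 0.12 in glia, 0.15 in interneurons, -0.14 in RPE and 0.39 in the mesenchymal class, with a median SE of 0.22, 0.26, 0.26, 0.32 and 0.33. In photoreceptors these differences ran from -0.86 to 0.52. The 3 samples of a genotype were not stated to be separate animals, so the spread may be technical.

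Members whose retinas did not overlap between genotypes were about as frequent as over all genes, or absent, in every type but the mesenchymal class. They numbered 2 of 34 in photoreceptors (5.55% of all genes tested), 0 of 20 in glia (5.88%), 2 of 32 in interneurons (6.21%) and 0 of 7 in RPE (10.7%). In photoreceptors they were Pdhb and Pfkfb4, the latter at 8.74, 11.2 and 8.10 CPM in wt/wt and 7.61, 4.46 and 3.42 in ko/ko (log2 -0.86 ± 0.36, edgeR adjusted p = 0.999). In interneurons they were Slc2a3 and Pfkm. Hk1, Hk2, Ldha and Pfkfb2, whose lowest photoreceptor retina stood above every other type, overlapped between genotypes. Photoreceptor Hk2 was at 1042, 1211 and 762 CPM in wt/wt and 965, 1097 and 814 in ko/ko, and Ldha at 1509, 1626 and 1894 against 2019, 1593 and 1959, a log2 difference of -0.04 ± 0.23 and 0.17 ± 0.21.

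In the mesenchymal class 6 of 12 members tested did not overlap, against 15.8% of all genes tested there, and none passed the adjusted test. Bsg was at 6406, 9669 and 10820 CPM in wt/wt and 16470, 14060 and 15760 in ko/ko (log2 0.75 ± 0.23, edgeR adjusted p = 0.471). Within batch 2 that difference was 0.93 and within batch 1, with 1 retina of each genotype, 0.54. Slc2a1, Pkm and Ldha were also higher in ko/ko within each batch (1.06, 0.71 and 0.52 in batch 2, 0.45, 1.01 and 1.18 in batch 1). Slc2a1 was at 798, 1195 and 1224 against 2816, 1341 and 1669 (adjusted p = 0.493). Ldha, at 368, 352 and 419 against 550, 482 and 950 (0.556), and Pkm, at 466, 598 and 651 against 909, 833 and 1310 (0.484), lay the same way, as did Slc16a1, while Ldhb lay lower in ko/ko. With batch as a covariate, the edgeR adjusted p was 0.0764 for Bsg, 0.163 for Pkm, 0.1915 for Slc2a1 and 0.248 for Ldha. In that fit 6 of the 12 members and 231 of the 1717 genes had an unadjusted p under 0.05. The make-up of the class moved with genotype as well: endothelial-led cells were 25.6%, 40.8% and 40.5% of it in wt/wt and 67.5%, 46% and 61.3% in ko/ko, and microglia-led cells 51.3%, 46.9% and 32.4% against 17.5%, 30% and 19.4%. Müller glia markers in this class were at 5805, 1718 and 1610 CPM in wt/wt retinas against 8883, 11490 and 2016 in ko/ko retinas, and erythrocyte markers at 24.5, 0 and 44.1 against 51.2, 7259 and 38.5, the high value being that of 1 retina, ko/ko 2. Rod markers were at 6210, 7556 and 11950 against 10410, 8916 and 15500, and rod RNA would give 38.95% of the Ldha UMIs and 37.2% of the Pkm UMIs of the class. Within endothelial-led cells alone, Bsg (17730, 18390 and 19210 CPM against 22230, 23520 and 19010) and Slc2a1 (2294, 2315 and 2280 against 3823, 2264 and 2193) overlapped. Pkm (855, 631 and 664 against 1039, 1078 and 1278) and Ldha (389, 358 and 443 against 634, 557 and 950) did not. In microglia-led cells Ldha (273, 320 and 302 against 321, 407 and 555) and Ldhb (323, 345 and 491 against 321, 320 and 111) did not overlap, though by a narrow margin, and Bsg, Slc2a1, Slc16a1, Pkm and Hk2 did. Microglia-led cells numbered only 20, 23 and 12 in wt/wt and 7, 15 and 6 in ko/ko, with 9007 to 40583 UMIs a retina. Endothelial-led cells numbered 10, 20 and 15 against 27, 23 and 19, with 25721 to 57910 UMIs. The share of all genes without overlap in these subsets was not counted. The part of the cell make-up and of these markers in the class values was not tested, and these subsets, set after the data were seen, carry no test.

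**Figure D5:**
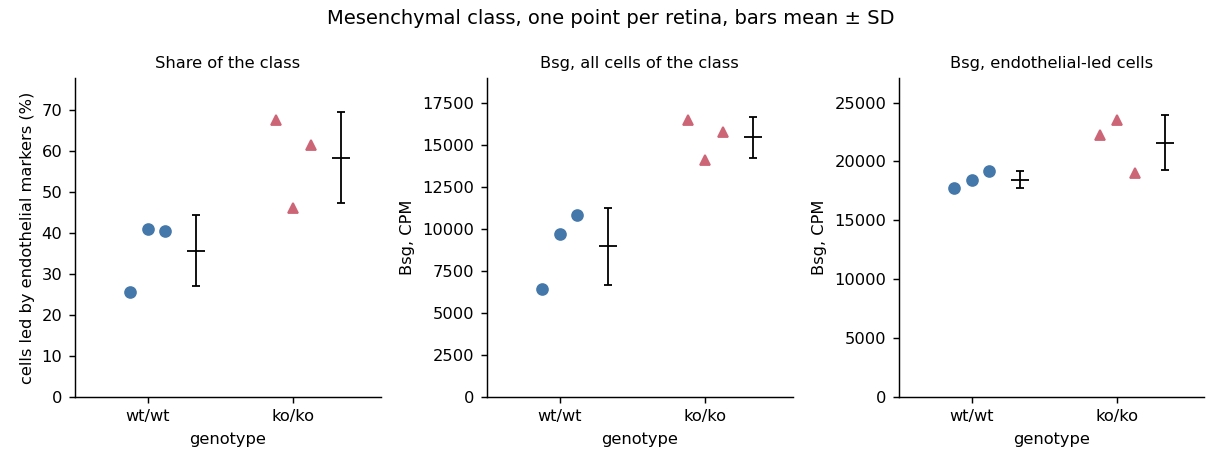
By genotype, a point for each retina of the mesenchymal class: the percentage of endothelial-led cells, the CPM of Bsg over the whole class and the CPM of Bsg within endothelial-led cells (vertical axes). The first 2 panels separate the genotypes (25.6% to 40.8% against 46% to 67.5%, and 6406 to 10820 against 14060 to 16470 CPM), and the last does not.

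Whether the genotype difference varied among the types was tested as an interaction. It passed in 4 of 6290 genes (0.0636%), the hemoglobin genes Hbb-bs, Hba-a1 and Hba-a2 among them, and in 0 of 29 members. At an unadjusted p under 0.05 there were 253 genes and, of the members, Slc2a1 (edgeR adjusted p = 0.961), Bsg and Hk2 (adjusted p = 1 for both). Isoform shares were compared between genotypes 90 times, and an exact permutation test of 3 against 3 cannot give less than p = 0.10. Every comparison without overlap gives that p of 0.10, no rare outcome among 90, so their count is not read as a difference. The 3 retinas of each genotype did not overlap in 11 of the 90 (adjusted p = 0.818), where both members of a pair such as Ldha and Ldhb count although they mirror each other. Among them were the Pdk3 share in photoreceptors (43.9%, 46.1% and 46.7% in wt/wt, 54.9%, 49.5% and 50.2% in ko/ko) and the Ldha share in the mesenchymal class (65.2%, 67.4% and 73.1% against 82.7%, 78.6% and 89.2%).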

How the data were processed

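The authors sequenced 10x 3′ v2 libraries of 6 retinas and, per the labels, processed them with Cell Ranger 3.1.0 on GRCm38. The deposited table holds raw UMI counts per gene and cell (exonic reads, per the study's methods), and a deposited cell table gives retina, batch and cell type (the authors' clusters on integrated values). Counts were summed over the cells of each type in each retina, 30 sums in all. A total of 147 of 52636 genes matched no annotation entry. Genes were filtered (filterByExpr), scaled by TMM and tested with edgeR 4.0.16's quasi-likelihood test, retina as a block between types and no covariate between genotypes, with Benjamini-Hochberg adjustment over all genes. Alternatives used limma 3.58.1 voom and DESeq2 1.42.0, other scaling, filters and subsets. Isoform shares needed 10 UMIs of a family and were tested with exact sign-flip permutations. Rod RNA was sized by the ratio of rod-marker CPM. Near-identical copies had at least 95% identity over at least 90 bases of the last 400 of a transcript (BLAST 2.17.0). Scripts were tested on simulated data. No pair of the 6 retinas agreed within sampling noise (photoreceptor chi-square per degree of freedom at least 1.67), and cell names held no barcodes that could be compared between retinas. Intervals cover counting error only, and depth is given per retina above. The 38 genes and all lists were chosen with earlier results of these data known. Values are given for the leading isoforms of each family and for the 3 members with the largest difference each way in each contrast. The others are given by range and count. The deposited cells carry the study's own filter, and doublets were not called again.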

Additional observations from a re-analysis of the deposited data

Results flagged for a closer look

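In 8 of 74 sets of 6 isoform shares tested, 1 retina lay far from the other 5 (Dixon's 95% limit, which chance passes in about 1 set of 20). They were the Hk1 share in interneurons (ko/ko 3, 79.2%), Pfkl in glia (wt/wt 2, 46.2%), Ldha in RPE (ko/ko 3, 5.56%), Slc16a3 in RPE (wt/wt 3, 0.909%), Slc16a7 in glia (wt/wt 2, 7.69%) and in the mesenchymal class (wt/wt 1, 12.5%), Pdk1 in interneurons (ko/ko 2, 52.8%) and Pdk4 in photoreceptors (wt/wt 1, 0.510%). Some rest on very few UMIs: Slc16a3 had 1 in RPE, Slc16a7 4 in glia and 4 in the mesenchymal class, and Pdk4 5 over all cells. The rate of 1 set in 20 need not hold for such sets.

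Counts on near-identical gene copies, which the comparisons did not use, came to 7921 UMIs for Gapdh, 11503 for Eno1, 11257 for Aldoa, 914 for Gpi1 and 509 for Ldhb.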

How the results depend on the processing

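Over 18 alternatives, the 114 differences of single members called between types gave 1993 values. Of these, 1836 kept their direction and side of the threshold, 157 lost the call and 0 reversed. Differences not called in the main fit were not tallied, and some gained a call, as given above for library size alone. Calls of Hk2, Hk1, Ldha, Slc2a1 and Bsg in photoreceptors against glia and RPE, and of Slc16a8 in RPE, were kept in all 18 alternatives. Those lost most often were Mpc2 (15 settings), Pfkl (14) and Pdk2 (12) in photoreceptors against interneurons. Without a filter, about 15740 of 32864 genes tested differed among the types, against 5930 of 6290 with it. The number called thus rose while the share of genes called fell. With batch 2 alone, 15 of 26 members tested differed between photoreceptors and interneurons (23 of 29). Over all genes, photoreceptors were higher in 1641 and lower in 1493 of 5051 there (2071 and 2082 of 6290). Between glia and RPE, 8 of 31 members differed with wt/wt alone and 9 of 26 with ko/ko alone (15 of 29). Over all genes, glia were higher in 1266 and lower in 415 of 8012 with wt/wt alone. With ko/ko alone the counts were 953 and 307 of 5013, against 1898 and 528 of 6290 in the main fit. Between genotypes, where 0 genes were called, the count without a filter was 1 in photoreceptors, 1 in interneurons, 3 in RPE and 28 in the mesenchymal class. With batch as a covariate it was 3 in RPE and 21 in the mesenchymal class. The interaction count (4 of 6290 genes) was 16 of 32864 without a filter. DESeq2 called 1 gene in RPE. No member was called between genotypes in any of these. The cause of these changes was not tested.

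With a replicate block, 4 genes were called in RPE and 26 in the mesenchymal class, 0 of them members. Same-numbered retinas did not deviate together in every pair, so the number is not taken as a pairing. Leaving out 1 retina at a time gave 0 to 2 genes in RPE (2 without wt/wt 3), 0 to 7 in the mesenchymal class (7 without ko/ko 2) and 3 to 13 in the interaction (13 without wt/wt 3, 8 without ko/ko 2 or ko/ko 3). Depth limits RPE most, where 23 of 38 members had under 10 UMIs over 6 retinas.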
